A study of Mus musculus with 8 samples.

Results

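*Mest*, *Peg3*, *Usp29*, *Peg10*, *Sgce*, *Snrpn*, *Ndn*, *Nnat*, *Plagl1* and *Impact* are imprinted genes of the mouse that are transcribed mainly from the paternal allele. These 10 of the 48440 genes counted in the study were listed because they belong to several separate imprinted domains, on 5 chromosomes, and all 10 were among the 17049 genes with enough reads to be compared between genotypes. The genes were selected on their imprinted status with their read counts and fold changes between the genotypes of these same libraries known, so the values below describe the 10 genes and carry no test. RNA came from mouse embryonic stem (ES) cells collected on day 1 of differentiation in vitro, and each of 4 genotypes was sequenced as 2 libraries. The lines go back to MK6 ES cells of the C57BL/6J mouse and were induced without feeder cells by withdrawal of LIF and 2i followed by the GSK3 inhibitor CHIR99021. The genotypes were wild-type, *Tbxt* Δexon6/Δexon6 (exon 6 of the mesoderm regulator *Tbxt* deleted on both alleles), *Tbxt* Δexon6/+ (deleted on 1 allele) and *Tbxt* insASAY/insASAY (labelled Insert ASAY, with the human AluSx1 and AluY elements inserted in the introns around exon 6). The Δexon6/Δexon6 libraries, replicates 1 and 2, come from different clones. Whether the replicates of the other lines share a clone is not given in the sources used here, so their spread may be smaller than that between clones. The deletion was made in cells grown without feeders and the insertion in cells grown on mouse embryonic fibroblasts.

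Genomic imprinting restricts transcription of a gene to the allele inherited from one parent. DNA methylation laid down in the egg or sperm marks a control region in each domain, and the mark is kept after fertilization by proteins such as Zfp57, Zfp445 and Trim28 together with the maintenance methyltransferase Dnmt1. In most domains with paternal expression the maternal copy of the control region is methylated and its promoter silent. Cultured ES cells are known to gain or lose such marks from line to line and from subclone to subclone. Counts per gene do not separate the alleles, so neither imprinting nor methylation was measured here, and in bulk RNA a change in a subset of cells cannot be told apart from a change in every cell.

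Several of the 10 genes start close to a control region or to each other. The start sites of *Peg3* and *Usp29*, which run in opposite directions on chromosome 7, are 146 bases apart, and those of *Sgce* and *Peg10* on chromosome 6 are 98 bases apart. RefSeq promoter windows were taken for 7 of the 10 genes, 11 windows in all. Each runs from 250 bases before to 50 after a start on GRCm38.p6, the build of the counts. No window of *Peg10*, *Sgce* or *Impact* was searched, so the counts of windows below leave these genes out. Both strands were searched for TGCCGC, the hexamer bound by Zfp57, and for AANATGGC, the core of the Yy1 site. The hexamer occurs in 5 of the 11 windows, at least 1 for each of *Mest*, *Snrpn*, *Nnat* and *Plagl1*, and in 11.6% of all 32817 windows of that length. A pair of the 5 are *Mest* windows that start 3 bases apart and hold the same sites, and the windows of *Peg3* and *Usp29*, which lack it, share 263 bases, so the 11 windows are not separate loci. GC content was 40.3% (*Snrpn*) to 70.7% (*Plagl1*) in the windows with the hexamer and had a median of 52.7% over all windows. The shares are not matched for GC content. The Yy1 core occurs in 0 of the 11 and in 6.04% of all windows. Printed in full are the start region that *Peg3* and *Usp29* share and the 250 bases before a start of *Mest* and of *Plagl1*, because *Mest*, *Peg3* and *Plagl1* are the genes past the thresholds used here (log2 fold change and adjusted p, given with the counts of genes) in both lines with an exon 6 deletion. All are given on the plus strand of GRCm38, and capitals mark the hexamer, which reads GCGGCA here on the opposite strand.
*Peg3* to *Usp29*, chr7:6730432-6730577: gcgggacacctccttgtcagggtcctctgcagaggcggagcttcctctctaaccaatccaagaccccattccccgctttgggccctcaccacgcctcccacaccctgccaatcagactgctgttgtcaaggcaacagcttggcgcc
*Mest*, chr6:30737800-30738049: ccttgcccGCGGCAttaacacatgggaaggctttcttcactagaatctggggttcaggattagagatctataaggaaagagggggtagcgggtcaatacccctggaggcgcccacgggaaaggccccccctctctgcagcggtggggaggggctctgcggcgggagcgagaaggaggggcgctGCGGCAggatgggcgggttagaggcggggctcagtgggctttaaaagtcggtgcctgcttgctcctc
*Plagl1*, chr10:13090582-13090831: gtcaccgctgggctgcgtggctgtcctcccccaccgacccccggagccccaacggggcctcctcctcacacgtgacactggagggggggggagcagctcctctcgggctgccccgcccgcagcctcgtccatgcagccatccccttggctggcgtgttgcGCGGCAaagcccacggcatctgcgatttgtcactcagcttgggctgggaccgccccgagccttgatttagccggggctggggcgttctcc
The stretch between *Peg3* and *Usp29* holds 5 CpG dinucleotides and no hexamer, the *Mest* stretch 14 CpG and 2 hexamers, and the *Plagl1* stretch 19 CpG and 1 hexamer. A match of letters is a description of the sequence and not a measured binding site.

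Reads on genes ran from 24618587 to 28445952 a library. The level of a gene is given as CPM, TMM-scaled counts per 1e6 reads, and per kilobase of exon where genes are compared with each other. *Tbxt* itself had 42 and 47 reads in wild-type, 22 and 26 in Δexon6/Δexon6, 39 and 54 in Δexon6/+ and 29 and 30 in insASAY/insASAY libraries, and a count over the whole gene does not show the loss of exon 6. Pluripotency genes were present in every library (mean *Pou5f1* from 180 CPM in Δexon6/+ to 288 in wild-type). Of 12 fibroblast genes 7 or 8 were over 1 CPM on average in each genotype, led by *Fbn1* (21.7 to 35.0 CPM) and *Col1a1* (5.22 to 13.0), while *Lum*, *Postn* and *Twist2* were among the lowest. The clones of Δexon6/Δexon6 differed more than other replicates: of 12837 genes of at least 2 CPM, 5.45% differed between them by more than 0.5 on the log2 scale, against 0.888% to 0.966% in the other pairs.

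The 10 genes covered a wide range of levels. In wild-type cells *Peg10* was highest at 97.6 ± 0.622 CPM per kilobase (SD, n = 2, as for all levels below). *Impact* (38.1 ± 1.70) and *Mest* (32.6 ± 0.824) came next, then *Snrpn* (16.0 ± 0.770) and *Nnat* (15.4 ± 1.24), which did not differ beyond their spread. *Peg3* lay at 10.9 ± 0.545, *Ndn* at 3.24 ± 0.0420, *Sgce* at 3.17 ± 0.00953 and *Plagl1* at 2.38 ± 0.108 CPM per kilobase. *Usp29* was lowest at 0.320 ± 0.0127, from 97 to 160 reads a library over the 8 libraries, so its fold changes are the least precise for a given spread. All exons of a gene enter the length, so a gene with many alternative exons is set low on this scale.

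**Figure D1:**
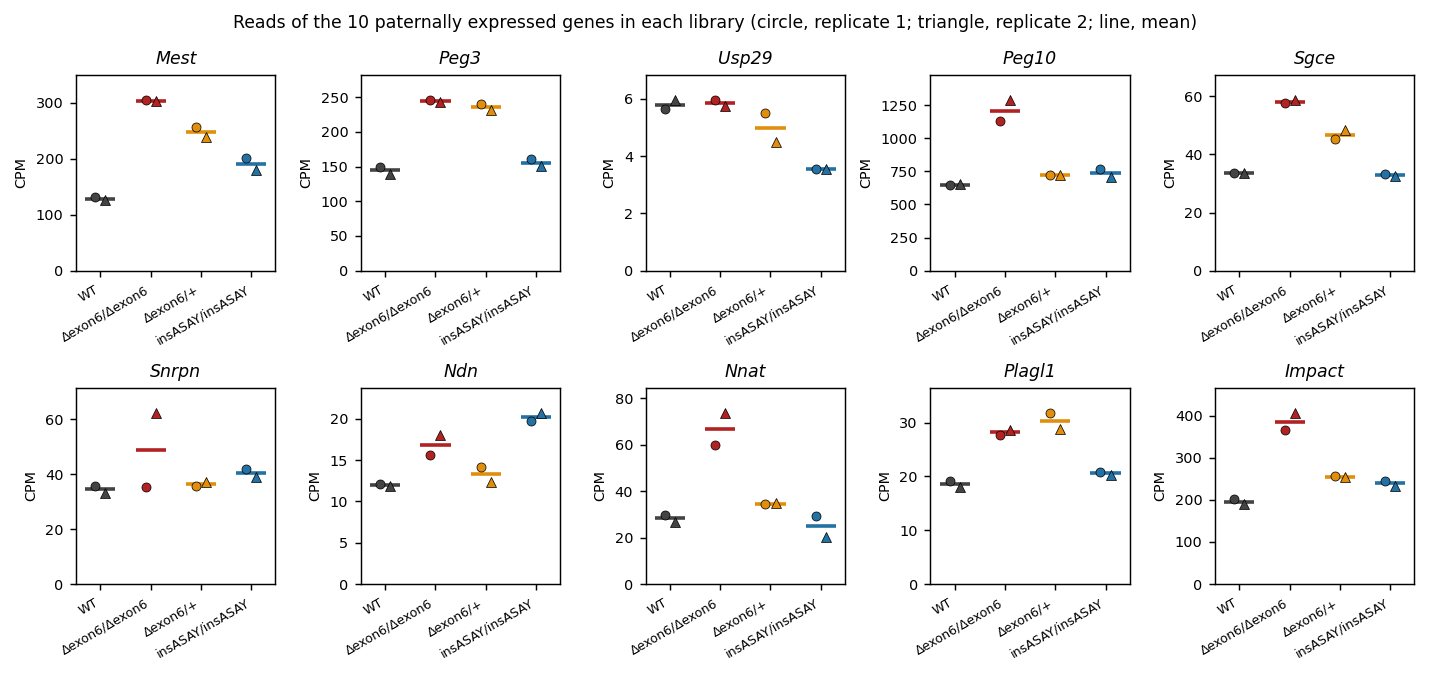
Level (CPM, y axis from 0, a separate scale for each gene) of the 10 paternally expressed genes in the 8 libraries, by *Tbxt* genotype; circles are replicate 1, triangles replicate 2 and lines the mean of both. *Mest* runs down from Δexon6/Δexon6 to Δexon6/+, insASAY/insASAY and wild-type, *Snrpn* is high in 1 of the Δexon6/Δexon6 libraries, and *Usp29* is lowest in insASAY/insASAY.

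*Mest* encodes a predicted hydrolase of the endoplasmic reticulum and is widely expressed in embryonic mesoderm (ENSMUSG00000051855, chr6:30723547-30748465, plus strand). Its level was 131 and 126 CPM in wild-type, 305 and 303 in Δexon6/Δexon6, 256 and 238 in Δexon6/+ and 201 and 180 in insASAY/insASAY libraries. All 6 mutant libraries lay above both wild-type libraries, and the 4 genotypes did not overlap with each other. Against wild-type the log2 fold change came to 1.24 ± 0.0573 (with the standard error of the fit, as for all fold changes below) in Δexon6/Δexon6, 0.94 ± 0.0572 in Δexon6/+ and 0.57 ± 0.0572 in insASAY/insASAY cells. Without insASAY/insASAY replicate 1 the last value was 0.49. Of the exon bases of *Mest*, 23.1% lie opposite exons of *Copg2*, which runs towards it, and the strand-specific counts used here keep the genes apart. *Copg2*, a coat protein gene, moved otherwise than *Mest*: its log2 fold change was -0.34 in Δexon6/Δexon6, 0.28 in Δexon6/+ and -0.55 in insASAY/insASAY cells.

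*Peg3* encodes a zinc finger protein that binds DNA, and *Usp29*, which starts beside it in the printed stretch, a protein of the ubiquitin-specific protease family. *Peg3* (ENSMUSG00000002265, chr7:6703892-6730431, minus strand) was at 150 and 140 CPM in wild-type, 246 and 242 in Δexon6/Δexon6, 240 and 232 in Δexon6/+ and 160 and 151 in insASAY/insASAY libraries. Its log2 fold change was 0.75 ± 0.0505 with both alleles deleted and 0.71 ± 0.0505 with 1 allele deleted, and the difference between these lines, -0.05 ± 0.0497, was within its standard error. With the insertion it was 0.10 ± 0.0508, with both libraries above wild-type by a small margin. *Usp29* (ENSMUSG00000051527, chr7:6730578-6967219, plus strand) did not follow *Peg3*. Its levels were 5.63 and 5.95 CPM in wild-type, 5.95 and 5.76 in Δexon6/Δexon6, 5.49 and 4.50 in Δexon6/+ and 3.53 and 3.55 in insASAY/insASAY libraries. *Usp29* overlapped between wild-type and Δexon6/Δexon6 cells, differing by 0.02 ± 0.139, and was lower in both insASAY/insASAY libraries than in any other, at -0.71 ± 0.148 against wild-type. On counts without strand, the value in Δexon6/Δexon6 cells was 0.24, and 14.3% of the exon bases of *Usp29* lie opposite *Zim3*.

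*Peg10* and *Sgce* share the other bidirectional start. *Peg10* derives from a retrotransposon and is needed for the placenta, and *Sgce* encodes a sarcoglycan of the cell membrane. *Peg10* (ENSMUSG00000092035, chr6:4747306-4760517, plus strand) was at 648 and 653 CPM in wild-type, 1127 and 1288 in Δexon6/Δexon6, 726 and 725 in Δexon6/+ and 771 and 704 in insASAY/insASAY libraries. Only the Δexon6/Δexon6 libraries stood far above wild-type, with a log2 fold change of 0.89 ± 0.0604 against 0.16 ± 0.0602 and 0.18 ± 0.0602 in the other lines. *Sgce* (ENSMUSG00000004631, chr6:4674350-4747207, minus strand) was at 33.7 and 33.5 CPM in wild-type, 57.7 and 58.7 in Δexon6/Δexon6, 45.2 and 48.5 in Δexon6/+ and 33.2 and 32.6 in insASAY/insASAY libraries. Its log2 fold change was 0.79 ± 0.0621 in Δexon6/Δexon6, close to that of *Peg10*, but 0.48 ± 0.0629 in Δexon6/+ cells, where *Peg10* was nearer to wild-type. With the insertion *Sgce* lay at -0.03 ± 0.0641.

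*Snrpn* and *Ndn* belong to the domain on chromosome 7 that corresponds to the Prader-Willi region of man. *Snrpn* encodes the splicing protein SmN, and *Ndn* necdin, a MAGE family protein of neurons. *Snrpn* (ENSMUSG00000102252, chr7:59982495-60140219, minus strand) was at 35.6 and 33.3 CPM in wild-type, 35.4 and 62.1 in Δexon6/Δexon6, 35.9 and 37.0 in Δexon6/+ and 41.9 and 38.9 in insASAY/insASAY libraries. Replicate 1 of Δexon6/Δexon6 lay within the wild-type range and replicate 2 above every other library, so the log2 fold change of 0.51 ± 0.174 rests on 1 clone, and without that clone it was 0.04. Of its exon bases, 27.3% are shared on the same strand with other genes, *Snurf*, which had 0 reads in all libraries, and *Gm38393*, so how reads were split between them is uncertain. *Ndn* (ENSMUSG00000033585, chr7:62346569-62350262, plus strand) was at 12.1 and 11.9 CPM in wild-type, 15.6 and 18.0 in Δexon6/Δexon6, 14.2 and 12.4 in Δexon6/+ and 19.7 and 20.6 in insASAY/insASAY libraries. It was the only gene of the 10 with its highest level in insASAY/insASAY cells, at 0.75 ± 0.0999 against wild-type, beside 0.49 ± 0.102 in Δexon6/Δexon6 and 0.15 ± 0.105 in Δexon6/+ cells.

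*Nnat*, *Plagl1* and *Impact* are each the paternally expressed gene of a small domain. *Nnat* encodes neuronatin, a small membrane protein of the endoplasmic reticulum, and lies within an intron of *Blcap*. *Nnat* (ENSMUSG00000067786, chr2:157560078-157562522, plus strand) was at 29.8 and 26.6 CPM in wild-type, 59.8 and 73.5 in Δexon6/Δexon6, 34.3 and 34.7 in Δexon6/+ and 29.2 and 20.3 in insASAY/insASAY libraries. At 1.24 ± 0.132 in Δexon6/Δexon6 cells its fold change equalled that of *Mest*, but unlike *Mest* it was only 0.29 ± 0.137 in Δexon6/+ cells, and the insASAY/insASAY libraries overlapped with wild-type (-0.19 ± 0.140). *Plagl1* encodes a zinc finger transcription factor that restrains growth of cells (ENSMUSG00000019817, chr10:13060504-13131694, plus strand). It was at 19.2 and 18.0 CPM in wild-type, 27.7 and 28.7 in Δexon6/Δexon6, 31.7 and 28.9 in Δexon6/+ and 20.8 and 20.3 in insASAY/insASAY libraries. Like *Peg3*, *Plagl1* was about as high with 1 allele of exon 6 deleted (0.71 ± 0.0789) as with both (0.60 ± 0.0792), and near wild-type with the insertion (0.15 ± 0.0810). *Impact* encodes an inhibitor of the kinase GCN2 (ENSMUSG00000024423, chr18:12955852-12992950, plus strand). Its levels were 202 and 189 CPM in wild-type, 366 and 405 in Δexon6/Δexon6, 257 and 253 in Δexon6/+ and 245 and 233 in insASAY/insASAY libraries. All mutant libraries lay above wild-type, with log2 fold changes of 0.98 ± 0.0553, 0.38 ± 0.0554 and 0.29 ± 0.0553 in that order.

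**Figure D2:**
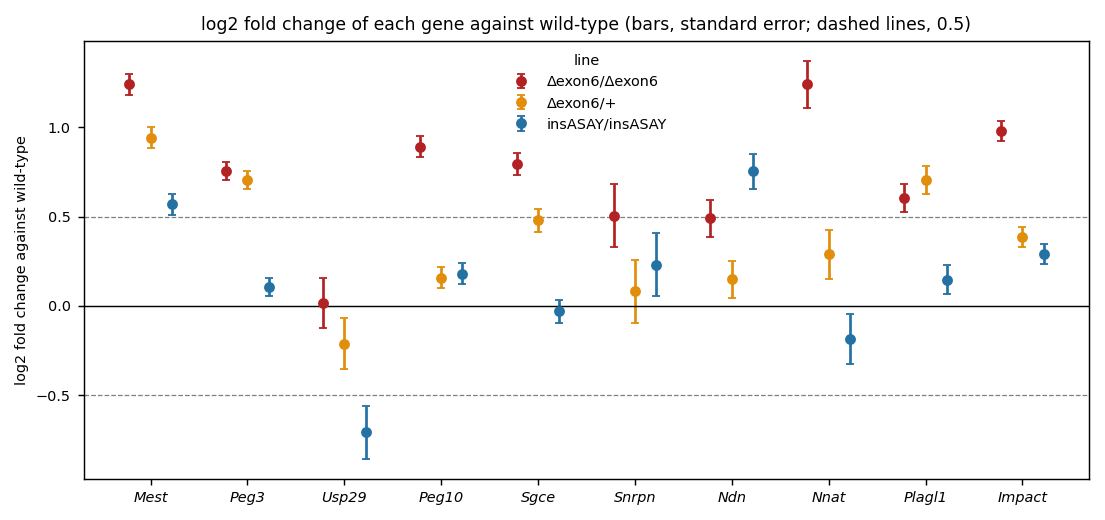
Log2 fold change against wild-type (y axis) of each of the 10 genes (x axis) in Δexon6/Δexon6, Δexon6/+ and insASAY/insASAY cells; points are estimates of the edgeR fit, bars their standard errors, and dashed lines mark 0.5 in either direction. Values for Δexon6/Δexon6 lie between 0.02 (*Usp29*) and 1.24 (*Mest* and *Nnat*), and those for insASAY/insASAY between -0.71 (*Usp29*) and 0.75 (*Ndn*).

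Across the 10 genes, the line with both alleles of exon 6 deleted stood furthest from wild-type by its median. A gene counts as past the thresholds if its log2 fold change exceeds 0.5 in either direction and its adjusted p is below 0.05. In Δexon6/Δexon6 cells 8 of the 10 genes were past them, all higher, where 12.7% of all tested genes were past them and 6.12% higher; *Ndn*, at 0.49, lay just under and *Snrpn*, at 0.51, just over the fold limit. The median log2 fold change of the 10 genes was 0.77, and that of all tested genes -0.01. In Δexon6/+ cells 3 genes, *Mest*, *Peg3* and *Plagl1*, were past the thresholds, all higher, against 13.5% of all genes and 6.6% higher, and the median was 0.34. In insASAY/insASAY cells *Mest* and *Ndn* were past them as higher and *Usp29* as lower, 3 of 10 against 21.3% of all genes (11.5% higher and 9.85% lower), with a median of 0.16. Both libraries of the line lay above both wild-type libraries for 8 genes in Δexon6/Δexon6, 9 in Δexon6/+ and 7 in insASAY/insASAY cells, as for 33.3%, 34.4% and 38.4% of all tested genes. Since the list was made with these values known, the counts are a description and nothing is read from them. The comparisons share the wild-type libraries, so their values are given side by side only.

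The mutant lines were also set against each other. Between Δexon6/+ and Δexon6/Δexon6 cells, *Peg10* (-0.73 ± 0.0603), *Nnat* (-0.95 ± 0.131) and *Impact* (-0.60 ± 0.0548) were past the thresholds, 3 of 10 where 22.2% of all genes were, and each was lower with 1 allele deleted. *Mest*, *Sgce*, *Ndn* and *Usp29* (-0.23 ± 0.143) were lower by less than 0.5. *Peg3* differed by -0.05 ± 0.0497, and *Plagl1* was slightly higher with 1 allele deleted (0.10 ± 0.0764). Between insASAY/insASAY and Δexon6/Δexon6 cells 7 of the 10 genes were past the thresholds, all lower in the insertion line, where 5.16% of all genes were past them and 2.38% lower. *Nnat* had the largest of these differences, -1.43 ± 0.134, and *Sgce* the next, -0.82 ± 0.0622. The exceptions were *Snrpn* (-0.28 ± 0.172), *Plagl1* (-0.46 ± 0.0784) and *Ndn*, which was higher with the insertion (0.26 ± 0.0968). *Snrpn* depended on the clone: without Δexon6/Δexon6 replicate 1 it was at -0.64 in this comparison and -0.77 in that of Δexon6/+ with Δexon6/Δexon6 cells, past the thresholds in both, and without replicate 2 at 0.19 and 0.04. Between insASAY/insASAY and Δexon6/+ cells *Peg3* (-0.60 ± 0.0503), *Sgce* (-0.51 ± 0.0630) and *Plagl1* (-0.56 ± 0.0781) were lower and *Ndn* higher (0.60 ± 0.0995), 4 of 10 against 27.5% of all genes. *Sgce* was under the fold limit without Δexon6/+ replicate 2 (-0.46) and *Plagl1* without Δexon6/+ replicate 1 (-0.49).

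The clones of Δexon6/Δexon6 gave like levels for most of the 10 genes. *Mest* differed by -0.01 between replicate 2 and replicate 1 on the log2 scale, *Peg3* by -0.02, *Sgce* by 0.03 and *Plagl1* by 0.05. *Nnat* (0.30), *Ndn* (0.20), *Peg10* (0.19) and *Impact* (0.15) were somewhat higher in replicate 2. *Snrpn* stood apart at 0.81, a difference that 0.966% of the 12837 genes of at least 2 CPM exceeded in size. Of 14 other paternally expressed genes at that level, *Snhg14*, the small nucleolar RNA host transcript of the *Snrpn* domain, *Zdbf2* and *Sfmbt2* were also more than 0.5 higher in replicate 2, and *H19* was so among the maternally expressed genes. Genes above that difference made up 2.58% of all genes of at least 2 CPM, and 5.45% were past it in either direction. More than 0.5 lower in replicate 2 were *Dlk1* (-0.60), which is paternally expressed, and the maternally expressed *Cdkn1c* (-0.89) and *Slc22a18* (-0.66). *Snhg14* had 13.0 and 20.2 CPM, *Zdbf2* 73.7 and 111, and *Sfmbt2* 101 and 156 in replicates 1 and 2. These genes were picked out after their values were seen. In the insASAY/insASAY line *Nnat* differed by -0.52 between replicates, a difference exceeded by 0.779% of genes.

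**Figure D3:**
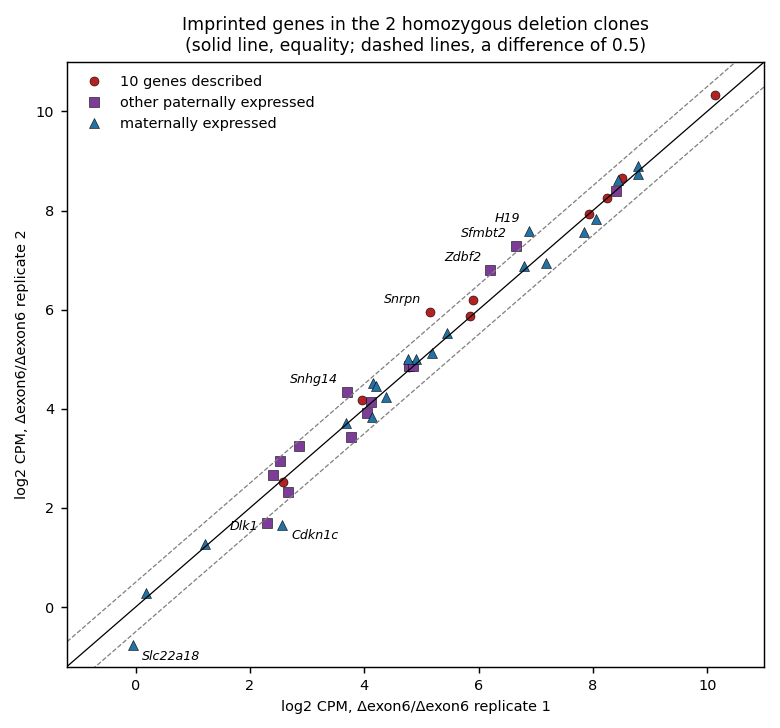
Log2 CPM in replicate 2 (y axis) against replicate 1 (x axis) of Δexon6/Δexon6, which are different clones, for imprinted genes whose mean over the genotypes reaches 2 CPM; circles are the 10 genes described, squares other paternally expressed genes and triangles maternally expressed genes. The solid line marks equal levels and the dashed lines a difference of 0.5; genes outside the dashed lines are named, and *Snrpn* at 0.81 is the only circle among them.

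The genes next to the 10 were measured in the same way. On each side of every gene the 2 nearest tested genes outside the list were taken, 31 neighbours in all, and these were tested with edgeR's quasi-likelihood test and Benjamini-Hochberg adjustment over all tested genes. The neighbours are not all free of imprinting. *Copg2*, *Klf14*, *Zim1* and *Ppp1r9a* also stand in the list of maternally expressed genes below. *Zim3*, *Zfp264*, *Snhg14*, *Magel2* and *Mkrn3* stand in that of other paternally expressed genes, so these neighbours enter the counts of both lists. The other neighbours stand in neither list, which does not show that they are free of imprinting. In Δexon6/Δexon6 cells 1 of the 31 was called, *Snhg14* (log2 fold change 0.51 ± 0.175, adjusted p = 0.0383), which is imprinted itself. *Snhg14* differed between the clones by 0.64 on the log2 scale. It was not alone in this: *Col1a2* (0.78) and *Gm38393* (0.74), which shares exon bases with *Snrpn*, were also higher in replicate 2. Of all tested genes 12.7% were called in these cells. Among the 18 neighbours of at least 2 CPM, fold changes ran from -0.49 (*Col1a2*) to 0.51 (*Snhg14*), with a median of 0.11. *Blcap*, the host of *Nnat*, was at 0.03 ± 0.0770 (adjusted p = 0.754), and *Ctnnbl1*, on the other side of *Nnat*, at -0.08 ± 0.0655 (adjusted p = 0.385). *Casd1* and *Ppp1r9a*, which flank *Sgce* and *Peg10*, were at 0.24 ± 0.0979 (adjusted p = 0.0704) and 0.20 ± 0.0729 (adjusted p = 0.0516).

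In Δexon6/+ cells 5 of the 31 neighbours were called, where 13.5% of all tested genes were. *Zfp521* beside *Impact* rose by 1.60 ± 0.159 (adjusted p = 8.74e-06), *Col1a2* beside *Sgce* by 0.66 ± 0.200 (adjusted p = 0.0228) and *Magel2* beside *Ndn* by 0.95 ± 0.337 (adjusted p = 0.0462). *Stx11* beside *Plagl1* fell by 1.64 on the log2 scale (adjusted p = 0.00206), and *Platr27* beside *Nnat* fell by 0.52 (adjusted p = 0.0465). Among insASAY/insASAY cells 5 were called as well, where 21.3% of all tested genes were. *Copg2* beside *Mest* fell by 0.55 (adjusted p = 2.25e-05) and *Col1a2* by 0.71 (adjusted p = 0.0197). *Zfp521* (0.67 ± 0.171, adjusted p = 0.00597), *Magel2* (1.10 ± 0.327, adjusted p = 0.0145) and *Ube2nl* (1.18 ± 0.314, adjusted p = 0.00757) rose. *Magel2*, *Stx11* and *Ube2nl* had means near or under 1 CPM.

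**Figure D4:**
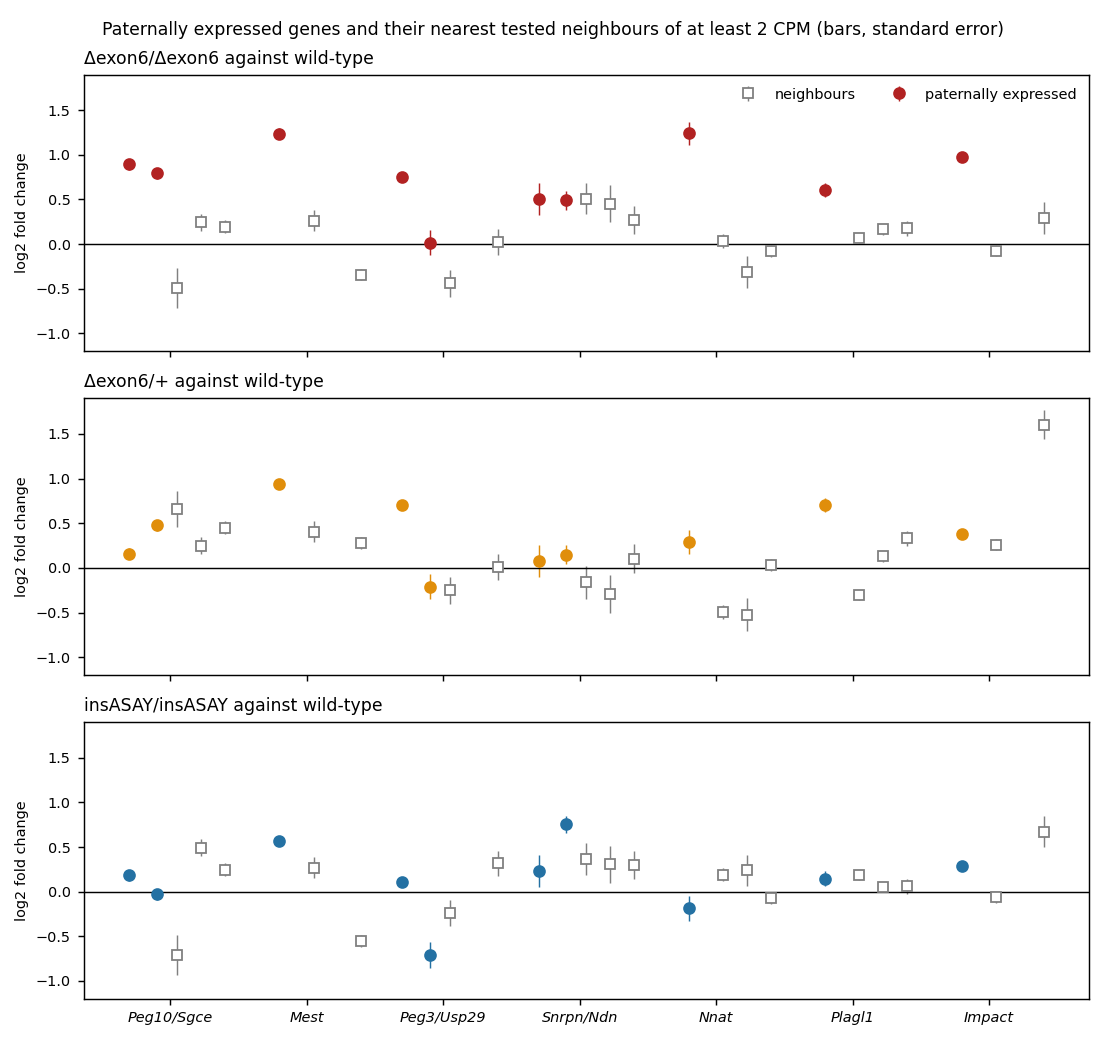
Log2 fold change against wild-type (y axis) of the paternally expressed genes (filled circles, in the order of the names on the x axis) and of their nearest tested neighbours of at least 2 CPM (open squares), by locus, in Δexon6/Δexon6 (top), Δexon6/+ (middle) and insASAY/insASAY cells (bottom); bars are standard errors. In the top panel the neighbours lie between -0.49 and 0.51, and *Mest* and *Nnat* reach 1.24. The squares include the imprinted genes *Copg2*, *Ppp1r9a*, *Zfp264*, *Snhg14* and *Mkrn3*.

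Other paternally expressed genes moved in both directions. Of 23 further such genes 20 were tested, and in Δexon6/Δexon6 cells 9 were called, 8 higher and 1 lower, with a median log2 fold change of 0.23 over the 20. *Zdbf2*, a zinc finger gene of chromosome 1, rose by 1.37 ± 0.134 (adjusted p = 3.99e-05), *Peg13*, a non-coding RNA, by 1.65 ± 0.173 (adjusted p = 5.27e-05) and *Peg12*, of the *Snrpn* and *Ndn* domain, by 1.16 ± 0.161 (adjusted p = 0.000258). *Igf2*, the fetal growth factor, fell by 0.93 on the log2 scale (adjusted p = 2.51e-05). In Δexon6/+ cells 3 were called: *Peg12* (0.68 ± 0.168, adjusted p = 0.00758), *Magel2* and, named after its value was seen, *Dio3* (-1.70 ± 0.443, adjusted p = 0.0102, under 1.5 CPM in every library). In insASAY/insASAY cells 8 were called, 6 higher and 2 lower, led by *Zdbf2* (1.71 ± 0.134, adjusted p = 2.27e-06) and *Peg12* (1.10 ± 0.161, adjusted p = 0.000138). *Sfmbt2*, a polycomb group gene, rose by 0.62 ± 0.135 (adjusted p = 0.00214) and *Kcnq1ot1*, the silencing RNA of its domain, fell by 0.54 (adjusted p = 0.00793) there. *Zdbf2* thus had 36.3 and 35.5 CPM in wild-type, 73.7 and 111 in Δexon6/Δexon6, 40.9 and 40.1 in Δexon6/+ and 116 and 119 in insASAY/insASAY libraries, highest in the line where most of the 10 genes were close to wild-type. Calls over all tested genes came to 12.7% in Δexon6/Δexon6, 13.5% in Δexon6/+ and 21.3% in insASAY/insASAY cells.

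Maternally expressed genes of the same domains as the 10, a list of 11 with 10 tested, gave 0 calls in Δexon6/Δexon6 and 0 in Δexon6/+ cells by edgeR and by DESeq2, with 4 and 5 of them at an unadjusted p under 0.05. In insASAY/insASAY cells 2 were called, *Copg2* and, under 0.5 CPM in every library and named after its value was seen, *Asb4* (1.49 ± 0.572, adjusted p = 0.0469). *Ube3a*, the ubiquitin ligase gene of the *Snrpn* domain on this list, lay between 103 and 119 CPM in all 8 libraries. Whether the genes of this list were expressed from the maternal allele in these cells was not measured. Maternally expressed genes of other domains, 17 tested of 19, gave 11 calls in Δexon6/Δexon6 cells, 4 higher and 7 lower. Genes were counted singly, also where several lie in the same domain, so these calls are not separate loci. The cell cycle inhibitor *Cdkn1c* fell by 4.10 (adjusted p = 7.24e-09), *Phlda2* by 2.01 (adjusted p = 8.27e-08) and the receptor gene *Igf2r* by 1.00 on the log2 scale (adjusted p = 5.47e-06). The non-coding RNA *Rian* rose by 1.34 ± 0.0611 (adjusted p = 8.27e-08). In Δexon6/+ cells 3 were called, *H19* (1.50 ± 0.183, adjusted p = 4.72e-05), *Meg3* (0.53 ± 0.107, adjusted p = 0.00219) and *Phlda2* (-0.51 ± 0.0850, adjusted p = 0.000585). In insASAY/insASAY cells 4 were called, all higher: *Rian* (0.54 ± 0.0610, adjusted p = 2.16e-05), *Mirg* (0.98 ± 0.128, adjusted p = 6.11e-05), *H19* (1.22 ± 0.184, adjusted p = 0.000161) and *Tssc4* (0.73 ± 0.114, adjusted p = 0.000225). Shares of 12.7%, 13.5% and 21.3% of all tested genes were called in the 3 comparisons with wild-type, as above.

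Genes that set, keep or erase imprints were measured in the same libraries, 17 in all. *Dppa3*, which protects the maternal genome from demethylation in the zygote, fell in each line, by 1.14 in Δexon6/Δexon6 (adjusted p = 0.000113), 1.34 in Δexon6/+ (adjusted p = 1.17e-05) and 0.61 on the log2 scale in insASAY/insASAY cells (adjusted p = 0.00196). *Zfp57*, the reader of the methylated hexamer printed above, had 87.4 and 84.2 CPM in wild-type, 81.5 and 62.2 in Δexon6/Δexon6, 52.3 and 59.5 in Δexon6/+ and 59.0 and 56.9 in insASAY/insASAY libraries. It was called in Δexon6/+ (-0.62 ± 0.0999, adjusted p = 0.000421) and insASAY/insASAY cells (-0.57 ± 0.0992, adjusted p = 0.000489) but not in Δexon6/Δexon6 cells (-0.26 ± 0.0982, adjusted p = 0.0572). Set directly against Δexon6/Δexon6 cells, *Zfp57* differed by -0.36 ± 0.101 in Δexon6/+ (adjusted p = 0.0101) and by -0.31 ± 0.10 in insASAY/insASAY cells (adjusted p = 0.0539), neither past both thresholds. Of the dioxygenases that oxidize 5-methylcytosine, *Tet2* was lower in Δexon6/Δexon6 (-0.75 ± 0.143, adjusted p = 0.00171) and insASAY/insASAY cells (-0.70 ± 0.141, adjusted p = 0.00131) and, named after its value was seen, higher in Δexon6/+ cells (0.71 ± 0.130, adjusted p = 0.00106). *Tet3* rose in Δexon6/Δexon6 (0.60 ± 0.0991, adjusted p = 0.000740) and insASAY/insASAY cells (0.63 ± 0.0987, adjusted p = 0.000222). *Setdb1* (0.51 ± 0.0515, adjusted p = 1.03e-05) and *Dnmt3l* (-0.75 ± 0.119, adjusted p = 0.000371) were called in Δexon6/+ cells. In all, 3, 5 and 4 of the 17 were called in Δexon6/Δexon6, Δexon6/+ and insASAY/insASAY cells. The shares over all tested genes were 12.7%, 13.5% and 21.3% in that order. *Dnmt1* (251 to 320 CPM), *Uhrf1* (351 to 418) and *Trim28* (712 to 917) were not called in any of these comparisons, all with fold changes under 0.5. Some had an adjusted p under 0.05. *Dnmt1* was higher by 0.16 in Δexon6/Δexon6 (adjusted p = 0.0192), 0.31 in Δexon6/+ (adjusted p = 0.000255) and 0.20 in insASAY/insASAY cells (adjusted p = 0.00333). *Trim28* was at -0.26 in Δexon6/Δexon6 (adjusted p = 0.00119) and *Uhrf1* at 0.20 in insASAY/insASAY cells (adjusted p = 0.00355). The part of these genes in the levels of the 10 was not tested.

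Markers of cell states moved with the lines as well. The summed level of 10 pluripotency genes, *Pou5f1* and *Sox2* among them, was 667 to 703 CPM in wild-type, 388 to 508 in Δexon6/Δexon6, 536 to 540 in Δexon6/+ and 508 to 512 in insASAY/insASAY libraries. In the mutant lines 5, 6 and 4 of the 10 were called, all lower but *Sox2* in Δexon6/+ cells (0.72 ± 0.105, adjusted p = 0.000199). That of 8 neural progenitor genes was 133 to 134 CPM in wild-type and 187 to 238 in Δexon6/Δexon6, 125 to 126 in Δexon6/+ and 157 to 170 in insASAY/insASAY libraries, most of it *Nes*. In Δexon6/Δexon6 cells 2 of them were called, both higher, and in insASAY/insASAY cells 1, higher. The sum hides the direction in Δexon6/+ cells, where *Sox1* (2.04 ± 0.139, adjusted p = 4.12e-07) and *Pax6* (1.31 ± 0.207, adjusted p = 0.000370) rose and *Tubb3* fell by 0.60 (adjusted p = 0.000208). Of 7 trophoblast genes, whose sum is mostly the keratin *Krt8* (249 to 259 CPM in wild-type, 263 to 378 in Δexon6/Δexon6, 123 to 125 in Δexon6/+ and 243 to 257 in insASAY/insASAY libraries), 2 were called in each line, all lower. The defining marker *Elf5* was near absent throughout, with 2 and 1 reads in wild-type and 0 in every mutant library, and was not tested. Among 12 fibroblast genes the sum was 60.2 to 64.1 CPM in wild-type, 45.5 to 47.3 in Δexon6/Δexon6, 67.6 to 71.2 in Δexon6/+ and 41.8 to 42.6 in insASAY/insASAY libraries, with 3, 3 and 5 called, all lower but 2 in Δexon6/+ cells. The sum of 10 primitive streak genes was 18.1 to 20.0 CPM in wild-type, 24.5 to 25.0 in Δexon6/Δexon6, 14.5 to 16.6 in Δexon6/+ and 19.5 to 22.5 in insASAY/insASAY libraries, with 2, 3 and 2 called. Most of the Δexon6/Δexon6 sum was *Eomes* (mean 20.4 CPM), which rose by 0.54 ± 0.117 (adjusted p = 0.00361). *Tbxt* itself fell by 0.81 there (adjusted p = 0.0360), and only 2 of the 6 tested genes had a positive fold change. In Δexon6/+ cells *Eomes* fell by 0.95 (adjusted p = 0.000136) and *Cdx2* rose by 3.06 ± 0.437 (adjusted p = 0.000170). That of 7 formative genes was 384 to 405 CPM in wild-type, 381 to 392 in Δexon6/Δexon6, 416 to 417 in Δexon6/+ and 409 to 417 in insASAY/insASAY libraries, most of it *Dnmt3b*, with 1, 3 and 1 called. In Δexon6/+ cells *Lef1* (1.23 ± 0.105, adjusted p = 2.57e-06) and *Sox3* (1.02 ± 0.128, adjusted p = 5.57e-05) rose and *Utf1* fell by 0.52 (adjusted p = 0.000252). For 7 extraembryonic endoderm genes it was 15.9 to 16.2 CPM in wild-type, 10.9 to 13.8 in Δexon6/Δexon6, 18.6 to 19.2 in Δexon6/+ and 13.2 to 13.4 in insASAY/insASAY libraries. Of these 1 was called in Δexon6/Δexon6 and 2 in Δexon6/+ cells, and in insASAY/insASAY cells 0 by edgeR and by DESeq2, with 1 at an unadjusted p under 0.05. Beside these counts, 12.7% of all tested genes were called in Δexon6/Δexon6, 13.5% in Δexon6/+ and 21.3% in insASAY/insASAY cells. The marker genes named here were picked after their values were seen. Whether cell state has a part in the levels of the 10 genes was not tested.

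The 10 genes did not vary as 1 group over the 8 libraries. Pearson's r of log2 CPM was 0.98 between *Peg3* and *Plagl1*, 0.97 between *Peg10* and *Impact*, 0.94 between *Peg3* and *Sgce* and 0.92 between *Mest* and *Peg3*. *Peg3* and its neighbour *Usp29* had an r of 0.34, and *Usp29* and *Ndn* one of -0.63. *Sgce* and *Peg10*, which share a start, had 0.82, less than *Sgce* with *Peg3* or *Nnat* (0.91). Libraries of 1 genotype are not independent points, and the 8 libraries share their genotype means, so these values are given without a test. Outside the 10, the genes of at least 2 CPM whose log2 CPM followed *Mest* most closely were *Nol8* (r = 0.986), *Tdp1* (0.977), *Zeb1* (0.970), *Apc* (0.967) and *Mapk4* (0.954). Their changes were smaller: *Zeb1*, a transcription factor of mesenchyme, went from a mean of 17.2 CPM in wild-type to 28.4 in Δexon6/Δexon6, 23.1 in Δexon6/+ and 20.2 in insASAY/insASAY cells, and *Nol8* from 39.3 to 45.4, 43.6 and 42.1. Closest to *Peg3* were *Usp8* (r = 0.971), *Lrrc8c* (0.963), *Serp1* (0.961), *Mtx2* (0.960) and *Xpo5* (0.955), all of which were nearly as high in Δexon6/+ as in Δexon6/Δexon6 cells.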

How the data were processed

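Poly(A) RNA of 8 libraries was sequenced with a kit that keeps the strand. The deposited values are read counts per gene that the authors obtained with STAR 2.7.2a on mm10 (GRCm38), whole numbers without normalization or filter, with replicates not pooled; the annotation behind them is not given in the sources used here. Of the columns given, the one for reads antisense to read 1 was taken, since 4.11% to 4.78% of stranded reads fell on the other strand. The 4 lines in which STAR sums unassigned reads (found in 7 of the files) entered no library size or test. GENCODE M21 gave symbols and coordinates through the Ensembl identifier without its version, which matched 48058 of 48440 genes.

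Genes were filtered with filterByExpr (minimum count 10, minimum total 15) and fitted with edgeR 4.0.16 in R 4.3.3, using TMM factors and the quasi-likelihood test in a model of the 4 genotypes over all 8 libraries, which was tested on simulated counts. Adjusted p-values are Benjamini-Hochberg values over the 17049 tested genes. Log2 CPM for correlations uses a prior count of 2. The thresholds are those of the study, whose authors used DESeq2 1.40.2. Alternatives were DESeq2 1.42.0 (Wald test), edgeR with the size factors of DESeq2, no filter, at least 10 reads in every library, unstranded counts, only the genotypes compared, replicate number as a block, and leaving out each library. Tables and plots used Python 3.11.15, numpy 2.4.6, pandas 2.3.3 and matplotlib 3.10.9.

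The 10 genes and all other gene lists were chosen with earlier results of these data known. Of each other list of imprinted genes or regulators, up to 4 called genes per comparison with wild-type, of at least 1 CPM and in order of adjusted p, were named (genes outside this are marked where they appear), together with all called neighbours and the 5 genes most like *Mest* and *Peg3* in log2 CPM. With 2 libraries per genotype, p-values measure only the spread between these libraries. Replicates were compared by chi-square over genes and differed beyond sampling noise in all genotypes (2.74 to 10.8 per degree of freedom).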

Additional observations from a re-analysis of the deposited data

Results flagged for a closer look

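On the strand opposite to its transcript, *Usp29* held a mean of 6.31% of the reads of both strands in Δexon6/+ and 8.36% in insASAY/insASAY cells, and each of these 4 libraries was above both wild-type libraries (4.88% and 3.61%) and above the share over all genes, which was at most 4.78%. This rests on 9 and 8 reads in Δexon6/+, 13 and 5 in insASAY/insASAY and 8 and 6 in wild-type libraries, and those reads are left out of the strand-specific counts behind the report's comparisons, entering only the counts without strand that were run as an alternative. Δexon6/Δexon6 libraries had 12 and 5. *Zim3*, which runs opposite to part of *Usp29*, was at or below 0.454 CPM in every library.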

How the results depend on the processing

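No fold change of the 10 genes that was past the thresholds changed sign under any alternative run. Of 660 recomputed fold changes of the 10 genes, 39 moved by more than the spread between replicates, and of 231 recomputed counts of calls 27 moved by over 1.5 times. DESeq2's Wald test in place of edgeR called *Ndn* (0.50) and not *Snrpn* (0.52) in Δexon6/Δexon6 cells. DESeq2 called 5 other paternally expressed genes in insASAY/insASAY cells in place of 8, 3 neighbours in Δexon6/+ and 3 in insASAY/insASAY cells in place of 5 each, and 1 maternally expressed gene of the same domains in insASAY/insASAY cells in place of 2. That last count was also 1 with at least 10 reads in every library (where *Asb4* was not tested), with unstranded counts and with the replicate block. With only the genotypes compared, 0 neighbours were called in Δexon6/Δexon6 cells. The cause was not tested. Replicate numbers did not pair the libraries: deviations from the group means of same-numbered libraries correlated at -0.00972 to 0.0494. With replicate number as a block, 7 of the 10 genes were past the thresholds in Δexon6/Δexon6 cells (*Snrpn* at 0.48), and 3 neighbours were called in Δexon6/+ cells.

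Leaving out each library in turn, the number of the 10 genes past the thresholds ran from 7 to 9 in Δexon6/Δexon6, 3 to 4 in Δexon6/+ and 2 to 3 in insASAY/insASAY cells against wild-type. Between lines it ran from 3 to 4 for Δexon6/+ against Δexon6/Δexon6, 6 to 8 for insASAY/insASAY against Δexon6/Δexon6 and 3 to 5 for insASAY/insASAY against Δexon6/+. Calls among other paternally expressed genes ran from 6 to 10, 0 to 2 and 4 to 7 in the 3 comparisons with wild-type, lowest without wild-type replicate 1 in Δexon6/+ (0) and without insASAY/insASAY replicate 1 (4). Those among maternally expressed genes of the same domains were 0, 0 and 1 to 2, with 1 without either insASAY/insASAY library, and those of other domains 11 to 12, 2 to 3 and 4 to 5. For genes that set or keep imprints they were 1 to 4 (1 without Δexon6/Δexon6 replicate 2), 4 to 6 and 4 to 5. For neighbours they were 0 to 4 (0 without either wild-type library, 4 without Δexon6/Δexon6 replicate 1), 2 to 4 (2 without wild-type replicate 2 or Δexon6/+ replicate 2) and 2 to 6 (2 without wild-type replicate 2 or insASAY/insASAY replicate 1). Where 1 library of a genotype was left, it was assumed to vary like the other genotypes. With 97 to 160 reads a library, depth limits the fold changes of *Usp29* most.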
